A study of Mus musculus with 16 samples.

Results

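The gene starts of steadily expressed genes in growing mouse oocytes were 6299 regions of about 1 kb. Each was centred on the start of a gene that reached at least 1 RPKM (reads per kilobase of gene, scaled to the mapped reads of the library) in all 9 RNA-Seq columns. Of the 24483 genes listed on chromosomes 1 to 19, 7226 passed this limit. The 927 whose start lay inside another listed gene were set apart as nested starts, which left the 6299 members. Every region ran from 500 bp before to 500 bp after the listed start. The RNA values chose the members and are given as a description only. Methylation was not used in the choice.

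All oocytes came from wild-type C57BL/6 mice (C57BL/6Babr in the study's methods) with no treatment, and they were grouped by diameter as they grow within the follicle. Mice were 5 to 7 days old for 10-30 µm oocytes, 7 to 12 days for 40-45 µm, 9 to 14 days for 50-55 µm, 13 to 16 days for 60-65 µm, and 20 days for the fully grown GV (germinal vesicle) oocytes. RNA-Seq had replicates A and B in each size class and 1 GV library. DNA methylation was measured by RRBS (reduced representation bisulphite sequencing, which reads DNA cut at CCGG sites) in replicates A and B of the 3 larger size classes, and by PBAT (post-bisulphite adaptor tagging, which reads the whole genome) in 1 library of 60-65 µm oocytes. Each library was made from pooled oocytes, and nothing states that replicates A and B came from separate mice, so p-values measure only the spread between these libraries.

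Most mammalian promoters carry a CpG island, a stretch rich in CpG dinucleotides that stays free of methylation in nearly all cells. Growing oocytes acquire DNA methylation anew through Dnmt3a with its cofactor Dnmt3l, mainly over transcribed gene bodies. The start of an active gene usually carries H3K4 methylation, which keeps this enzyme complex away. A CpG island that lies inside a transcription unit, downstream of the promoter in use, can become methylated in the oocyte, and most maternal imprints are of this kind.

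The sequences below show what the regions look like at both ends of the range. Each is the 200 bases from 220 to 21 bases before a start, in GRCm38, 5′ to 3′ on the gene's strand, with every CpG in capitals. None overlaps an annotated exon. Usp46, Tcf20, Rap1gap2 and Usp54 had listed starts that were methylated at 60-65 µm, and Spin1, Skp1a and Eef1a1 had unmethylated ones. For Rap1gap2 a further annotated start of the same gene is shown.
Usp46, chr5:74068451-74068650, − strand: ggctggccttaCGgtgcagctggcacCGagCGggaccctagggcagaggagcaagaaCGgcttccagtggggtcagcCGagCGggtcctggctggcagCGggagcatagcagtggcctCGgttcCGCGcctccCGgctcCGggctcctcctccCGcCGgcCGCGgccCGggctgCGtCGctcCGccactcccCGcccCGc
Tcf20, chr15:82912155-82912354, − strand: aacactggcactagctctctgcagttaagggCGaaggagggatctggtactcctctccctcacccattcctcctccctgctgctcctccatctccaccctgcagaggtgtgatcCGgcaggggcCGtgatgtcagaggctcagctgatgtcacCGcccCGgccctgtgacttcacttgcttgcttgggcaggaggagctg
Usp54, chr14:20618375-20618574, − strand: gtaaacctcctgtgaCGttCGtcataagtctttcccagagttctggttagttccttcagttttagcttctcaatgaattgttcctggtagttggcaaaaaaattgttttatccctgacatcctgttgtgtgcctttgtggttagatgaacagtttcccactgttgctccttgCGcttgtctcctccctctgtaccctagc
Rap1gap2 listed start, chr11:74590207-74590406, − strand: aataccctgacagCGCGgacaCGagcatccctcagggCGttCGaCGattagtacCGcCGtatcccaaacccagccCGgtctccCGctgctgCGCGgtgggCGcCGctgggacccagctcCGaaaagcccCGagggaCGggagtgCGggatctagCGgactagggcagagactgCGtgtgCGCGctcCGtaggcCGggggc
Rap1gap2 upstream start, chr11:74610936-74611135, − strand: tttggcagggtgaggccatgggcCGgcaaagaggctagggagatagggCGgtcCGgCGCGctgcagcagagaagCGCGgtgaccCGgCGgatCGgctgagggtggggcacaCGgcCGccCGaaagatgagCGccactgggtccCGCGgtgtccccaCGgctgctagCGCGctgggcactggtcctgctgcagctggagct
Spin1, chr13:51100660-51100859, + strand: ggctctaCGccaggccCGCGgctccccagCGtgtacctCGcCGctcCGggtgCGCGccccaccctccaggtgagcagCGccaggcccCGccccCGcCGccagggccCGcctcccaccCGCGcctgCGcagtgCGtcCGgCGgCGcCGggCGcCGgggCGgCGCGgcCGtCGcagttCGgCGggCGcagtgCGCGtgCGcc
Skp1a, chr11:52231775-52231974, + strand: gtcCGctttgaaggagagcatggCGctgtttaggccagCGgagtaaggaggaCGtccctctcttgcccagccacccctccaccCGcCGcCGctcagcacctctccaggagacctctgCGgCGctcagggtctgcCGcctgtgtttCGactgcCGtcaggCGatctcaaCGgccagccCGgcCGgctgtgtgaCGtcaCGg
Eef1a1, chr9:78489172-78489371, − strand: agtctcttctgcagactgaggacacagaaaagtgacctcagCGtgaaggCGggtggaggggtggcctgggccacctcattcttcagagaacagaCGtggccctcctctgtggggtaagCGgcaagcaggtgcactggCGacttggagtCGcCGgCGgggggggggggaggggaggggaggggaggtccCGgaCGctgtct

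CpG density alone did not separate methylated from unmethylated stretches. The Usp46 stretch held 22 CpGs, the Skp1a stretch 18 and the Spin1 stretch 35. Usp46 read 18.0% and 24.4% in the 60-65 µm RRBS libraries, whereas Skp1a read 0 and 1.54% and Spin1 read 0.758% and 0.763%. Usp54 held only 3 CpGs, and its 3 measured cytosines were at 100% in PBAT over 16 calls. Eef1a1 held 10 CpGs and was at 0 over 7 cytosines and 37 calls. The listed Rap1gap2 stretch was at 25.9% in PBAT and the upstream one at 0, over 6 cytosines and 30 calls.

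The libraries held 594179 to 910358 CpG cytosines with at least 5 calls in RRBS and 6382302 in PBAT, from 29275627 to 55938194 and 94501474 calls in all. A region counted as measured where at least 5 such cytosines lay in it, and its methylation was their mean. The 7 oocyte markers summed to 2170 to 3208 RPKM. The 11 markers of granulosa and other somatic cells summed to 2.39 to 3.33 RPKM at 40-45 µm, 4.62 to 5.41 at 50-55 µm, 6.92 to 7.98 at 60-65 µm and 9.77 at GV. Of these, 3 reached 1 RPKM in any column (Cyp19a1, Col1a1 and Pecam1), while the leukocyte and epithelial markers Ptprc and Krt18 stayed at or under 0.00823 and 0.0182 RPKM. The somatic sum moved with oocyte size, and its part in the methylation values was not tested. In such bulk samples fewer cells of a type and less RNA per cell cannot be told apart.

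Of the 6299 members, 4703 (74.7%) were measured in all 6 RRBS libraries, 5801 (92.1%) in PBAT and 462 in no methylation library. Members were CpG-rich, with a median of 67 CpGs per region against 13 in the 8969 silent starts (genes under 0.1 RPKM in every column) and 36 over all listed starts. Only 820 members held fewer than 30 CpGs. For 1025 members (16.3%) the region overlapped that of another listed start, so that neighbours shared cytosines.

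The RNA of the members was nearly level over growth. The median member held 4.98 RPKM at 10-30 µm, 4.85 at 40-45 µm, 5.08 at 50-55 µm, 5.18 at 60-65 µm and 5.14 at GV, and the median ratio of its highest to its lowest column was 1.64. For 71.8% of members the ratio was under 2, although 16 members had a ratio of at least 10. Just inside the limit were Esrrb, Fem1c and Gpr149, whose lowest RPKM were 1.00019, 1.00093 and 1.00183. Just outside were Brpf1 at 0.999377, Zbtb1 at 0.999068 and Madd at 0.999035.

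In RRBS, methylation of the members was close to 0 at every stage measured. The mean over the 4703 members was 0.742% and 0.759% in the 40-45 µm replicates (0.751% ± 0.0124, SD, n = 2), 0.755% and 0.919% at 50-55 µm (0.837% ± 0.116) and 0.855% and 1.01% at 60-65 µm (0.935% ± 0.112). The lower 50-55 µm replicate lay below the higher 40-45 µm one, and the 50-55 and 60-65 µm replicates overlapped, so the classes did not form separate steps. The median barely moved, at 0.477% ± 0.162, 0.445% ± 0.180 and 0.513% ± 0.0363. Members under 5% made up 99.4%, 98.4% and 98.7% of those measured in the 3 classes. PBAT at 60-65 µm gave higher values: over the 4677 of these members that it measured the mean was 3.63% and 18.8% were at 5% or more, and over all 5801 it measured the mean was 4.42% and 21.9% were at 5% or more. Over all cytosines with at least 5 calls, in or outside the starts, the RRBS mean was 2.39% and 2.41% at 40-45 µm, 4.63% and 6.91% at 50-55 µm and 7.43% and 8.16% at 60-65 µm, and the PBAT mean at 60-65 µm was 22.1%.

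Gene by gene, replicates A and B were weakly related where nothing was methylated and strongly related once some members were. Pearson's r over the 4703 members was 0.129 at 40-45 µm, 0.454 at 50-55 µm and 0.900 at 60-65 µm, as a description across genes that share libraries. The PBAT library had the higher median. Over the 4930 members measured in both 60-65 µm RRBS libraries and in PBAT, the median was 3.06% in PBAT and 0.565% in RRBS, and the ranking among the many low values was unrelated (Spearman's rho 0.0429, Pearson's r 0.812). Of these members, 23 were at 25% or more by both methods, 2 by the RRBS mean alone and 4 by PBAT alone. Levels from the 2 methods are therefore given side by side and not merged.

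Among members measured in all 6 RRBS libraries, the 5 with the most RNA at 60-65 µm had starts with values near 0. RRBS did not measure some members with more RNA. One of these, chosen after its value was seen, was Zp3 (623 RPKM at 60-65 µm), at 16.5% in PBAT. Gdf9, the oocyte growth factor that acts on granulosa cells, held 419 to 580 RPKM over the 9 columns. Its start read 0.222% and 0 at 60-65 µm in RRBS and 1.32% in PBAT. Zar1, which binds stored maternal mRNA, was at 0 in all 4 earlier RRBS libraries and at 0.465% and 0.500% at 60-65 µm. Spin1, a reader of methylated histone H3, read 1.63% and 0.720%, and Skp1a, a subunit of SCF ubiquitin ligases, read 1.53% and 0.171%. Bcl2l10, a Bcl2 relative abundant in oocytes, read 1.51% and 1.33% with only 26 CpGs. The member with the fewest CpGs among those measured in every library, Cul1, the scaffold of SCF ligases, held 16 CpGs and read 0.646% and 0.573% in RRBS and 0 of 69 calls in PBAT, which allows up to 4.35%. Qk, an RNA-binding protein gene, had the most CpGs (177) and read 0.534% and 0.254%.

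Within the members the share of methylated starts was set beside the level of RNA. Split into 4 equal groups by RPKM at 60-65 µm, the members at 25% or more in PBAT made up 2.41% of the lowest group (1.02 to 2.79 RPKM), 1.36% and 1.29% of the middle groups and 1.64% of the highest (from 10.6 RPKM). Among members with fewer than 30 CpGs the shares were 23.1%, 18.99%, 16.3% and 13.4% from the lowest to the highest group, and among CpG-rich members 0.817%, 0.359%, 0.360% and 0.619%. The highest group held the most CpG-poor members (267 of 820). Because RNA chose the members, no test is given.

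On average members were less methylated than silent starts in every RRBS library. The mean over the 6 libraries was 0.841% for the 4703 members and 1.08% for 1749 silent starts. The difference was −0.235 percentage points ± 0.0780 (SD over 6 libraries), members lower in 6 of 6, with a range from −0.344 to −0.135 (exact two-sided sign-flip permutation test, p = 0.03125, the smallest that 6 libraries allow). Members also had a lower mean than the 668 measured nested starts, whose genes passed the same RPKM limit, by −0.204 percentage points ± 0.133, again in 6 of 6 libraries (p = 0.03125, exact permutation test). Both differences are small beside the range among the members themselves, and they are of means. The median member was below the median silent start in 4 of 6 libraries only. It was higher in 40-45 µm replicate B (0.362% against 0.341%) and in 60-65 µm replicate B (0.487% against 0.466%). Against nested starts the members' median was the higher in 4 of 6 libraries, such as 0.591% against 0.548% in 40-45 µm replicate A. None of the 4703 members was at 25% or more at 40-45 µm, but 1 of the 668 nested starts was in each library (62.2% and 63.6%). The nested difference of means was smallest there (−0.0396 and −0.0999). It was not computed without such a start, so the 6 of 6 may rest on it. Measured members were richer in CpGs than measured silent starts (median 75 against 61), and with regions of at least 30 CpGs alone the difference from silent starts was −0.136 and that from nested starts −0.150, both with an exact permutation p of 0.03125. Without any 1 library neither test could pass, since 5 libraries allow no p below 0.0625, and with regions overlapping no other start the nested difference was −0.496 with p = 0.125 (exact permutation test).

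**Figure D1:**
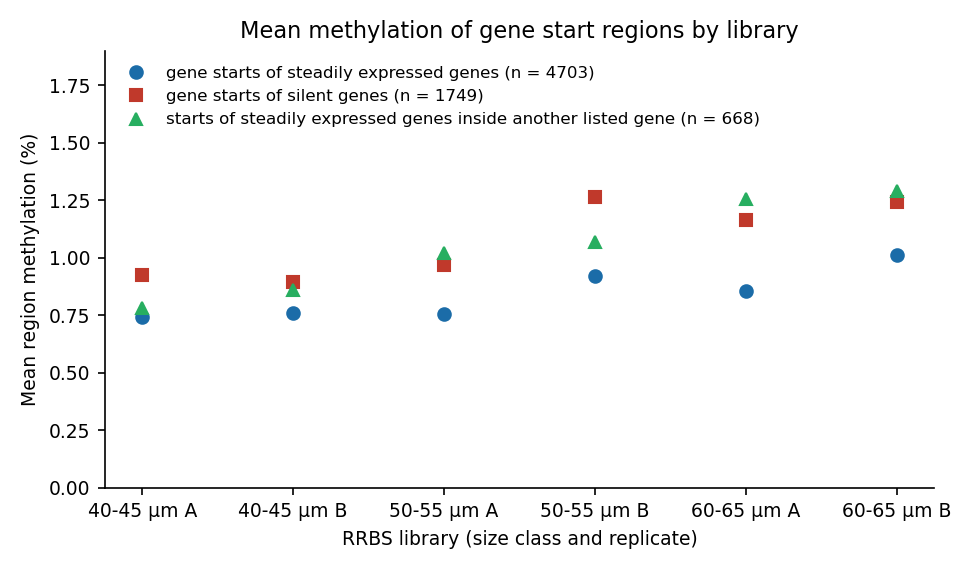
Mean methylation of gene start regions (%, vertical axis) in each of the 6 RRBS libraries (horizontal axis) for steadily expressed, silent and nested starts measured in all 6 libraries, 1 point per library. Steadily expressed starts (0.742% to 1.01%) sit below silent starts (0.894% to 1.26%) and nested starts (0.781% to 1.29%) within each library.

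On average CpG-poor members carried more methylation than CpG-rich members. The 38 members with fewer than 30 CpGs measured in every RRBS library averaged 0.898% to 4.29% per library, and the 4665 with 30 or more averaged 0.737% to 0.987%. Among the 38 was Celf2, which gained 58.2 percentage points in pooled calls from 40-45 to 60-65 µm. In so small a group 1 such gene weighs on the mean, and no value was computed without it. The difference was +1.67 percentage points ± 1.25 (SD over 6 libraries), higher in 6 of 6 (p = 0.03125, exact permutation test), and it ran from 0.14 at 40-45 µm (replicate B) to 3.31 at 60-65 µm (replicate B). It was lost when at least 10 cytosines were asked of each region (0.0728, exact permutation p = 0.656). That bears most on regions with few CpGs and left 4 CpG-poor members. The difference also missed the threshold at 2 RPKM (0.853, 22 CpG-poor members) and with the limit set at 20 CpGs (4.17, 4 CpG-poor members). Both had an exact permutation p of 0.0625. RRBS needs CCGG sites and reached few CpG-poor starts, so PBAT gives the wider view, with 381 CpG-poor members.

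In PBAT the share of methylated members fell steeply with CpG count. Members at 25% or more were 10 of 23 below 10 CpGs (43.5%), 41 of 166 at 10 to 19 CpGs (24.7%), 17 of 192 at 20 to 29 (8.85%), 18 of 826 at 30 to 49 (2.18%), 8 of 2537 at 50 to 79 (0.315%) and 3 of 2057 at 80 or more (0.146%). Silent starts spanned a narrower range, from 11.3% below 10 CpGs to 0.225% at 80 or more. Below 30 CpGs the methylated share was 17.8% of members and 8.13% of silent starts. At 30 CpGs or more it was 0.535% of members and 1.32% of silent starts. Thus members were the more often methylated class at CpG-poor starts and the less often methylated class at CpG-rich starts in this library, which has no replicate, so neither contrast was tested.

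**Figure D2:**
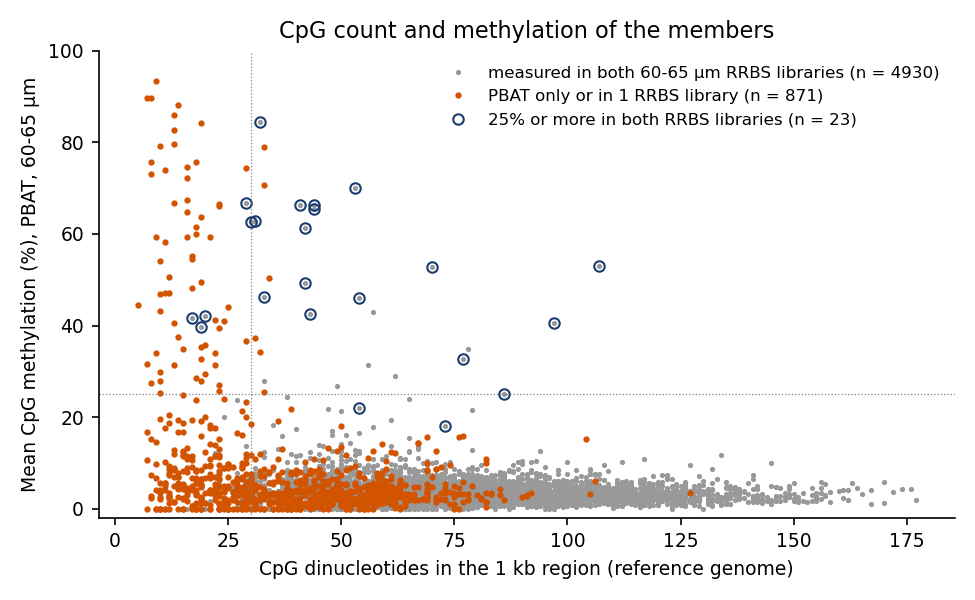
CpG dinucleotides in the 1 kb region (horizontal axis) against mean PBAT methylation at 60-65 µm (%, vertical axis), 1 point per member measured in PBAT. Open circles are the members at 25% or more in both 60-65 µm RRBS libraries. High values crowd below 30 CpGs (68 of 381 members at 25% or more), and few of the 5420 members to the right of that line rise above 25% (29 members).

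Methylation around the starts of CpG-rich members formed a deep trough. In PBAT, for members of at least 5 kb with 30 CpGs or more, the mean was 22.1% at 5 kb upstream, 16.3% at 2 kb upstream and 3.54% in the last 200 bp before the start. Downstream it was 11.96% at 1 kb, 31.5% at 2 kb and 46.6% near 5 kb, inside the gene body. Silent starts of the same CpG class were at 4.03% just before the start and reached only 7.65% at 2 kb and 9.09% near 5 kb downstream. For CpG-poor members the trough was shallow, with 16.1% just before the start, 20.8% at 2 kb and 31.5% near 5 kb. Within the 1 kb region the mean difference between the sides did not pass the test: over 2459 members with cytosines on both sides, downstream minus upstream was +0.0115 percentage points ± 0.0185 over the 6 RRBS libraries (exact two-sided sign-flip permutation test, p = 0.21875), a sign that turned with some settings (−0.0156 with at least 10 calls per cytosine). At a limit of 2 RPKM it was +0.0290 and passed (exact permutation p = 0.03125). More members were higher downstream than upstream in all 6 libraries, from 1273 against 1118 in 40-45 µm replicate A to 1188 against 1018 in 60-65 µm replicate B, and in PBAT (2544 against 2240).

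**Figure D3:**
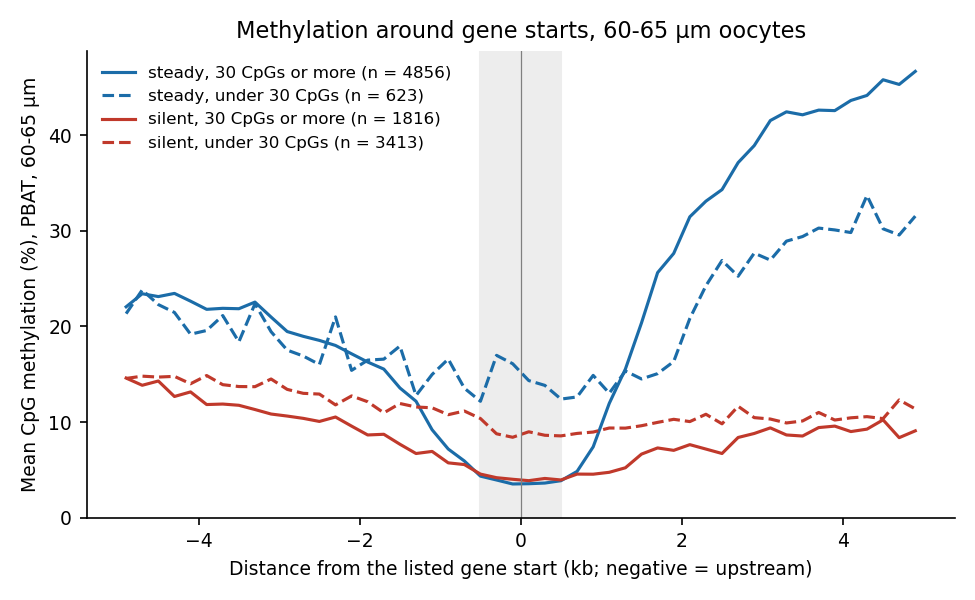
Mean CpG methylation in the 60-65 µm PBAT library (%, vertical axis) in 200 bp bins by distance from the listed start (kb, horizontal axis, negative upstream) for steadily expressed and silent genes of at least 5 kb, split at 30 CpGs. CpG-rich members dip to 3.54% before the start and climb to 46.6% near 5 kb downstream, where CpG-rich silent genes reach 9.09%.

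A small set of members was methylated by 60-65 µm. At 60-65 µm, 23 of 4961 members measured in both RRBS libraries (0.464%) were at 25% or more in both, against 0.998% of all 11624 listed starts, 0.965% of silent starts and 1.14% of nested starts. None had been at 25% or more in both 40-45 µm libraries, and 2 were by 50-55 µm (Ndst1 and Akap12). Among the 23, 19 were under 5% in both 40-45 µm libraries. For all 17 measured in both 50-55 µm libraries, both 60-65 µm values lay above both 50-55 µm values, and for 14 of the 17 both 50-55 µm values lay above both 40-45 µm values. The choice by high 60-65 µm values favours this order, which is given as a description. In PBAT 21 of the 23 were at 25% or more, and Disp1 (22.0%) and Fam116a (18.0%) fell short. The 23 lay on 15 chromosomes, held 17 to 107 CpGs and 1.43 to 182 RPKM at 60-65 µm.

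The highest was Ndst1, which makes heparan sulphate (chr18:60712889-60713889, 32 CpGs). Its start went from 4.24% and 1.61% at 40-45 µm through 42.0% and 32.3% at 50-55 µm to 68.6% and 69.0% at 60-65 µm, with 84.4% in PBAT. Akap12, a scaffold of protein kinase A (chr10:4265829-4266829, 53 CpGs), went from 2.39% and 5.30% through 31.3% and 28.7% to 63.6% and 70.8%, while its RNA stayed at 30.4 to 59.9 RPKM. In both genes the 3 size classes did not overlap. Tcf20, a nuclear transcriptional coregulator (chr15:82911634-82912634, 44 CpGs), read 0.146% and 0 at 40-45 µm, 34.7% in the measured 50-55 µm replicate and 56.2% and 68.4% at 60-65 µm. BC026585, annotated as Cryzl2 (chr1:157458080-157459080, 30 CpGs), read 1.07% and 0.115%, then 16.8% and 18.2%, then 53.1% and 70.1%. The zinc finger gene Zfp64 (chr2:168955087-168956087, 41 CpGs) read 3.58% and 3.85%, then 27.8% and 22.9%, then 61.0% and 60.0%. Its replicates were within 5 percentage points of each other at each size.

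Celf2, an RNA-binding regulator of splicing (chr2:7080802-7081802, 29 CpGs), read 2.09% and 2.47%, then 23.4% and 18.98%, then 59.4% and 59.5%. Ppt2, a lysosomal thioesterase (chr17:34628010-34629010, 31 CpGs), read 1.16% and 3.08% at 40-45 µm, 20.5% in 1 replicate at 50-55 µm and 50.6% and 67.4% at 60-65 µm. Wfdc1 (chr8:119666023-119667023, 20 CpGs) had the widest replicate gap, 38.6% and 74.7% at 60-65 µm over 7 cytosines in replicate A, and no annotated transcript of its own began within 100 bp of its listed start. Abcd4, a lysosomal cobalamin transporter (chr12:84616966-84617966, 42 CpGs), read 1.38% and 0, then 19.9% and 14.9%, then 54.6% and 48.8%. Dst, a cytoskeletal linker (chr1:34011325-34012325, 70 CpGs), read 2.38% and 1.89%, then 13.3% and 16.9%, then 44.1% and 52.3%. These genes differed in CpG count and RNA level but shared the step from nearly nothing at 40-45 µm.

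Prep, a prolyl endopeptidase, was the most CpG-rich of the 23 with 107 CpGs. It read 1.30% and 0.0689%, then 16.6% and 18.4%, then 36.7% and 48.0%, with 52.9% in PBAT over 164 cytosines. Dgcr2 (chr16:17893645-17894645, 17 CpGs) was at 0 in both 40-45 µm replicates and at 39.2% and 45.0% at 60-65 µm. Dpep3, a dipeptidase (chr8:105978919-105979919, 44 CpGs), was already at 12.2% and 12.1% at 40-45 µm and reached 38.4% and 39.6%. E330021D16Rik (chr6:136401330-136402330, 33 CpGs) read 2.85% and 15.9%, then 15.4% and 16.8%, then 32.8% and 40.3%, and it had the most RNA of the set, 38.7 to 204 RPKM. Its 40-45 and 50-55 µm replicates overlapped.

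The 8 lowest were Rhd, Stat6, Tmcc3, Disp1, Rap1gap2, Usp46, Fam116a (annotated as Dennd6a) and 1700017B05Rik. They ranged from 0 to 5.89% at 40-45 µm, 0 to 19.5% at 50-55 µm and 25.7% to 43.8% at 60-65 µm. Usp46, a deubiquitinase, was the best covered of them: its 97 CpGs gave 94 measured cytosines and 2703 calls in 60-65 µm replicate A, and its start read 0.968% and 1.897%, then 12.8% and 8.37%, then 29.0% and 30.6%, while its RNA was 16.1 to 44.3 RPKM. The median RNA of the 23 was 4.06 RPKM at 10-30 µm, 5.06 at 40-45 µm and 4.93 at 60-65 µm (a description, since the rule required RNA in every column).

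**Figure D4:**
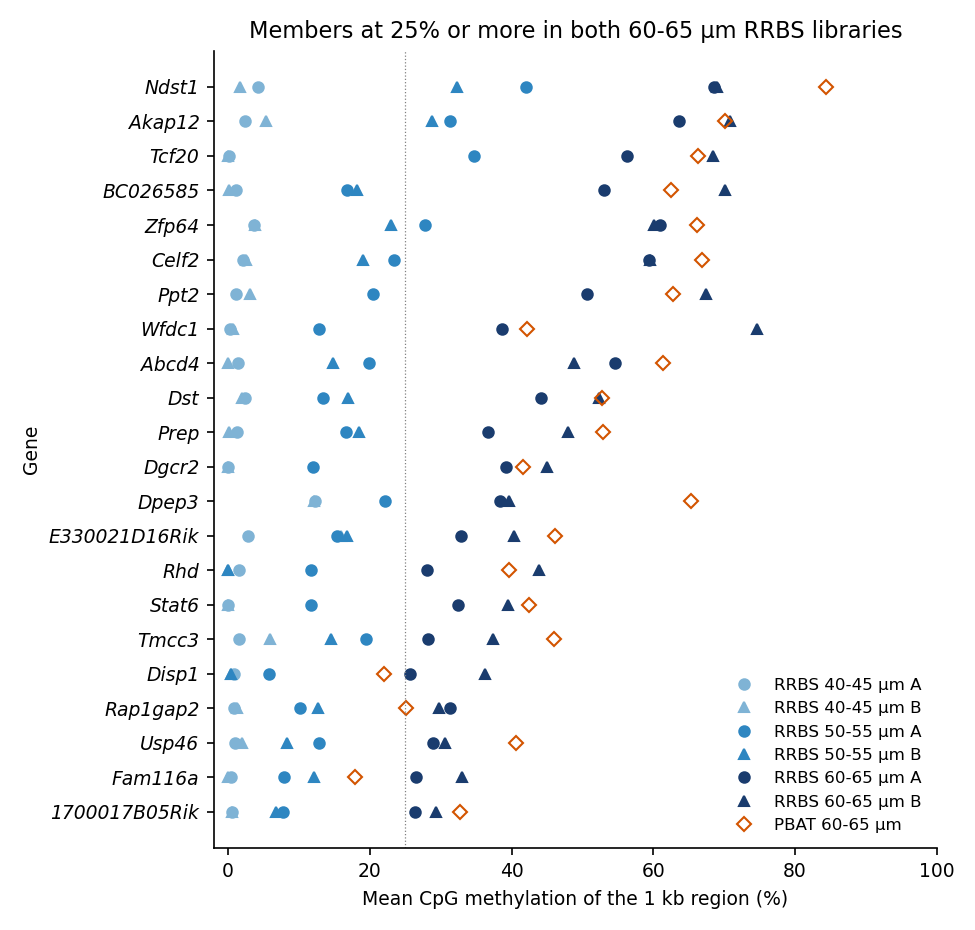
Mean CpG methylation of the 1 kb region (%, horizontal axis) of 22 of the 23 members at 25% or more in both 60-65 µm RRBS libraries, 1 line per gene, with 1 symbol per library (circles replicate A, triangles replicate B, open diamonds PBAT). Values lie between 0 and 15.9% at 40-45 µm, between 0 and 42.0% at 50-55 µm and between 25.7% and 74.7% at 60-65 µm.

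A test per region followed each start over the size classes. It was a quasi-binomial logistic model of methylated and unmethylated calls in the 6 RRBS libraries, with the spread moderated by limma and p-values adjusted by the Benjamini-Hochberg method over all 10747 listed starts tested, of which 4695 were members. From 40-45 to 60-65 µm, 32 members gained methylation and 1 lost it, where 1.27% of all starts tested gained and 0.0093% lost. The members' share that gained was 0.682%, below that background. From 40-45 to 50-55 µm 13 members gained and 1 lost (0.521% and 0.0093% of all starts), and from 50-55 to 60-65 µm 17 gained and 1 lost (0.642% and 0.0186% of all starts).

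Of the 23 methylated members, 17 could be tested and all 17 gained from 40-45 to 60-65 µm. The 23 were chosen for high values in the same 60-65 µm libraries, so this count is a description and supports nothing. Their changes, in pooled calls, were led by BC026585 (+60.5 percentage points, adjusted p = 9.17e-12), Celf2 (+58.2, adjusted p = 5.61e-14) and Akap12 (+57.1, adjusted p = 7.82e-21), and the smallest adjusted p was that of Usp46 (+32.0, adjusted p = 2.21e-38). Tet3, the oocyte enzyme that oxidises methylated cytosine, gained at its own listed start (chr6:83441178-83442178, 56 CpGs): from 0.705% and 0.0896% through 9.91% and 11.3% to 22.1% and 30.4%, with 31.3% in PBAT (+21.0, adjusted p = 2.71e-19). Tet3 RNA was 6.95 to 30.6 RPKM over the same growth. The remaining 14 that gained included Kifc3, Fbxl19, Spg21, Tars, Midn, Smarcc2, Pdgfb, Samm50, Ube2f, Extl3, Dpp9, Vdac2 and Mertk, listed here after their values were seen, with changes of 2.58 to 20.8 percentage points. In 31 of the 32 both 60-65 µm values lay above both 40-45 µm values, an order that the call in these same libraries favours.

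How firmly these calls held differed among genes. From 40-45 to 60-65 µm, 13 of the 32 kept their call whichever library was left out, among them BC026585, Celf2, Akap12, Zfp64, Abcd4, Dst, Prep, Usp46, 1700017B05Rik, Rap1gap2, Tet3 and Smarcc2. Without 40-45 µm replicate B, or without 60-65 µm replicate B, 15 members gained in place of 32, and by edgeR's quasi-likelihood test 13 did. Without 40-45 µm replicate A, 7 members lost methylation from 40-45 to 60-65 µm in place of 1. The calls between neighbouring classes held less well. From 40-45 to 50-55 µm the number that gained was 6 without 40-45 µm replicate A (beside 7 that lost), 0 without 40-45 µm replicate B (26 at an unadjusted p under 0.05), 31 without 50-55 µm replicate A, 7 without 50-55 µm replicate B, 7 without 60-65 µm replicate A and 2 without 60-65 µm replicate B. From 50-55 to 60-65 µm it was 8 without 40-45 µm replicate B, 5 without 50-55 µm replicate B, 11 without 60-65 µm replicate A and 1 without 60-65 µm replicate B, and without 50-55 µm replicate A 16 gained and 19 lost. In the limma and edgeR tests, which called 1 and 2 members from 40-45 to 50-55 µm, neither called any from 50-55 to 60-65 µm (121 and 57 rose at an unadjusted p under 0.05).

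The calls of the 2 losses depended on which libraries were included. Ddost, a subunit of oligosaccharyltransferase, read 1.21% and 4.71% at 40-45 µm and 0.194% and 0.640% at 60-65 µm (fell by 3.05 percentage points, adjusted p = 0.00380), and its change was −1.12, no longer called, without 40-45 µm replicate B. It was no longer called without 50-55 µm replicate B or either 60-65 µm replicate, with changes of −3.24 to −2.86. From 40-45 to 50-55 µm it was called as well (fell by 2.80, adjusted p = 0.0396). Mael, a gene of the piRNA pathway, read 0.347% and 27.9% at 50-55 µm and 2.59% and 0 at 60-65 µm (fell by 11.4, adjusted p = 0.0427). Without 50-55 µm replicate B its change was +0.746, without replicate A of that size it was −23.5, and without any 1 of the other 4 libraries the call was lost with changes of −12.5 to −10.3, close to that with all 6.

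PBAT reached starts that RRBS did not. In this library 97 of 5801 members (1.67%) were at 25% or more, against 4.9% of all 17051 starts measured, 4.51% of silent and 4.12% of nested starts. The count depended on coverage: it was 133 with at least 3 calls per cytosine, 29 with at least 10 calls per cytosine and 56 with at least 10 cytosines per region. Of the 97, 46 were at 50% or more and 13 at 75% or more. RRBS measured 21 of them in all 6 libraries and 67 in none. Those 67 held 5 to 34 CpGs, with a median of 16, and 1.29 to 255 RPKM at 60-65 µm. With no RRBS value by the limit of 5 cytosines, no time course is given for them as a set.

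The 10 highest of the 67 read 78.9% to 93.4%, each from 5 to 14 cytosines and 26 to 84 calls. D7Ertd443e (chr7:134385161-134386161) led with 93.4% over 6 cytosines, 37 of 40 calls (95% Wilson interval of the pooled calls 80.1% to 97.4%, counting error only). Usp54, of the ubiquitin-specific protease family (chr14:20617854-20618854), read 89.8%, with 30 of 35 pooled calls methylated (85.7%, interval 70.6% to 93.7%). Zfp78 (chr7:6370864-6371864) read 89.6%, Ppp6r2, a regulatory subunit of protein phosphatase 6 (chr15:89252535-89253535), 88.2%, and the ribonuclease gene Rnase6 (chr14:51128568-51129568) 86.0%. Osgin1 (chr8:119433624-119434624) read 84.2%. Zfp445, a zinc finger protein that helps maintain imprints (chr9:122861628-122862628), read 82.6%. Foxn3, a forkhead repressor (chr12:99449611-99450611), read 79.6%, Nav3 (chr10:109999719-110000719) 79.2% and BC034090 (chr1:155232224-155233224) 78.9%. The lowest of 9 RPKM columns in these 10 genes was 1.07 to 6.03, all above the 1 RPKM that the rule required. In 2 of these 10 genes RRBS had calls on 2 or 3 cytosines, under that limit. For BC034090 the methylated calls were 1 of 96 and 0 of 218 at 40-45 µm, 17 of 103 and 4 of 27 at 50-55 µm and 33 of 91 and 27 of 67 at 60-65 µm. For Zfp445 they were already 104 of 163 and 173 of 199 at 40-45 µm, and 116 of 128 and 121 of 125 at 60-65 µm.

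Annotated transcripts set many of these starts apart. GENCODE vM21 named 6285 of the 6299 members, and 337 of them (5.36%) had another start of the same gene more than 1 kb upstream of the listed one. Members with such a start were at 25% or more in 42 of 243 cases in PBAT (17.3%), and members without in 55 of 5548 (0.991%). In the 60-65 µm RRBS libraries the counts were 8 of 164 (4.88%) and 15 of 4789 (0.313%). The split was also there at 30 CpGs or more (4.97% against 0.382% in PBAT) and below 30 CpGs (53.2% against 11.04%). Mean RRBS methylation was 0.879% and 0.791% at 40-45 µm and 2.89% and 3.41% at 60-65 µm in 156 members with an upstream start, and 0.737% and 0.759% and then 0.785% and 0.932% in 4539 without. The pattern was noticed in these data and is given with no test.

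At the upstream starts themselves methylation was mostly low in each range of the listed start. Over all 156 members measured at both starts in PBAT, the outermost measured upstream start was under 5% in 94. That was so in 49 of the 86 whose listed start was under 5% and in 18 of the 30 whose listed start was at 5% to 25%. Of 40 members with a listed start at 25% or more in PBAT and an upstream start measured in PBAT, the outermost measured one was under 5% in 27, at 5% to 25% in 11 and at 25% or more in 2. The medians of the 40 were 66.2% at the listed and 3.603% at the upstream start. These 40 were chosen for a high listed start, which nearly fixes that the listed start was the higher (in 39 of them, against 85 of all 156 and 23 of the 86). The upstream starts of the 40 held a median of 67.5 CpGs against 17.5 at the listed ones, where over all 156 the medians were 44 and 51.5. Upstream starts lying further in were not always low: 11 of the 40 had one measured in PBAT more than 1 kb inside the outermost, and in 3 of these such a start was at 25% or more. In Tcf20 the outermost upstream start, 75.7 kb away at chr15:82987372-82988372, read 1.68% in PBAT and 0.303% and 0.344% in 60-65 µm RRBS, against 66.4%, 56.2% and 68.4% at the listed start. In Ndst1 the outermost upstream start, 35.3 kb away, read 3.03% against 84.4%, while the annotated starts between them read 2.65%, 12.5% and 78.7%. Tet3 read 6.58% at an upstream start 14.7 kb away, Usp54 5.82% at 22.7 kb, Ppp6r2 1.39% at 41.5 kb and Foxn3 0.942% at 113 kb. Rap1gap2, whose 2 starts are printed above, read 25.04% and 0 in PBAT, although its upstream start was at 1.21% and 6.73% in the 60-65 µm RRBS replicates. In BC034090 the outermost upstream start, with 104 CpGs, went from 1.30% and 0.0474% at 40-45 µm to 33.6% and 39.5% at 60-65 µm and read 43.7% in PBAT, while another annotated upstream start, with 13 CpGs, read 6.26% in PBAT. RPKM values are per gene, so which start gave the RNA was not tested.

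**Figure D5:**
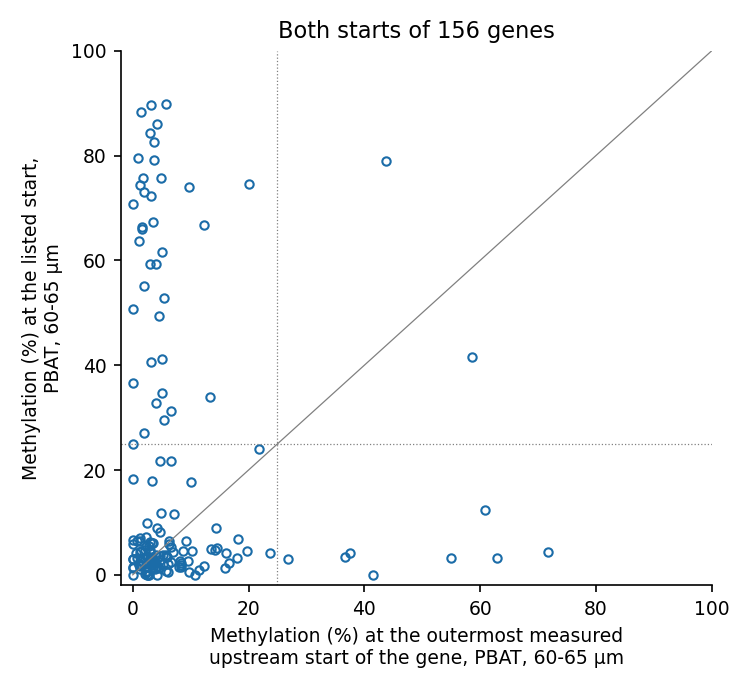
PBAT methylation at 60-65 µm (%) of the listed start (vertical axis) against that of the outermost annotated upstream start of the same gene measured in PBAT (horizontal axis), 1 point for each of 156 members measured at both, with a line of equality and dotted lines at 25%. Of all 156 points, 85 lie above the line of equality and 94 are under 5% on the horizontal axis. Of the 40 members at 25% or more on the vertical axis, 27 are under 5% on the horizontal axis.

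The surroundings of the methylated members were methylated on both sides. For the 23, PBAT averaged 53.4% from 5 to 1 kb upstream (21 measured) and 52.6% from 1 to 5 kb downstream (19 measured). For members under 5% in both 60-65 µm RRBS libraries it averaged 18.4% upstream and 33.0% downstream, and for silent starts 12.4% and 10.4%. The 23 had a median of 43 CpGs, 57.8% GC and a ratio of observed to expected CpGs of 0.549. Members under 5% had 74 CpGs, 61.0% GC and a ratio of 0.802. The letters CGCGC (either strand) occurred in 69.6% of the 23 regions, 92.8% of the low members, 81.6% of all members and 52.3% of all listed starts. The GC box GGGCGG occurred in 69.6%, 92.9%, 83.4% and 57.5%, and the ETS-type word CCGGAAGT in 4.35%, 16.2%, 13.99% and 6.62%. TGACGTCA occurred in 0 of the 23, 5.27% of the low members, 4.81% of all members and 3.05% of all listed starts. In 23 regions this 0 and the ETS-type share, which is 1 region, are too few to be read against those shares. All 4 words contain a CpG, and the sets compared differ in CpG count as given above.

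Gene groups that every cell uses were counted against the share of all members at 25% or more, 0.464% in RRBS and 1.67% in PBAT. The members held 66 cytosolic ribosomal protein genes, 57 mitochondrial ribosomal protein genes, 30 proteasome subunits, 68 genes of the respiratory chain and ATP synthase and 14 housekeeping genes. Both 60-65 µm RRBS libraries measured 56, 45, 28, 58 and 11 of them, in that order, and none of these was at 5% or more in the mean of the libraries, with a highest value of 3.56%. PBAT measured 65, 56, 28, 67 and 14, and none reached 25%, with a highest value of 12.9% among cytosolic ribosomal proteins. Actb read 1.36% and 0.320%, Rps12 1.51% and 1.08%, and Cox5a 1.09% and 1.09% in the 60-65 µm RRBS replicates. Counts of 0 in lists of this size lie near the share of all members, so nothing is read from them. Psma2 and Mrpl32, whose regions overlap, both read 3.55% in PBAT.

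Oocyte genes differed from these in CpG content. The 45 members of the oocyte list had a median of 17 CpGs, 32 had fewer than 30, and RRBS measured only 10 at 60-65 µm, none of them at 5% or more. PBAT measured 25, with a mean of 6.03% and a maximum of 21.7%, and none at 25% or more. The share at 25% or more was 1.67% of all members but 17.8% of those with fewer than 30 CpGs. The 25 were not split by CpG count, and their count was not tested against either share. The median of the 25 was 4.41%, and 4 of them were at 10% or more. Among low ones, Gdf9 read 1.32%, Zar1 1.28%, Bcl2l10 4.64% and Tcl1, a coactivator of Akt kinase, 7.05%. Zp3, which encodes the sperm-binding zona pellucida glycoprotein, read 16.5% in PBAT, Mos, the kinase that holds eggs in meiotic arrest, 11.6% from 5 of 46 methylated calls (95% Wilson interval 4.73% to 23.04%), and Mael 19.3%. In the list of methylation and chromatin machinery, 23 genes were members and Tet3 was the only 1 of 21 measured at 25% or more in PBAT (1.67% of all members). Uhrf1, the partner of Dnmt1, read 1.46% and 0 at 60-65 µm, and Setdb1, an H3K9 methyltransferase, 0 and 3.12%, while the listed Dnmt1 start held 4 CpGs and was not measured. Of 15 members at imprinted loci with a maternal germline mark, 10 were measured in PBAT. Impact (chr18:12971752-12972752) read 55.2%, and its pooled calls were 48 methylated of 83 (57.8%, 95% Wilson interval 47.1% to 67.9%), and the other 9 were under 10%. A low listed start does not mean an unmethylated locus. Other annotated starts in PBAT read 4.71% to 46.5% in Mest, 0.752% to 30.4% in Blcap and 26.6% to 38.2% in Commd1. No test is given for these lists, and with so few genes in each their counts are not read against the 1.67% of all members.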

How the data were processed

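RNA-Seq values were the RPKM per gene that the authors had computed and deposited. For RRBS and PBAT, the authors deposited for each CpG cytosine, strands apart, a methylation percent and the counts of methylated and unmethylated calls. The submitters' processing notes name Trim Galore 0.2.8 and 0.3.5, Bismark 0.10.0 and 0.14.0, TopHat2 2.0.9 and build GRCm38. PBAT reads were deduplicated, and no such step is stated for RRBS, so its calls are not independent molecules. All percents, intervals and limits of 0 cover counting error only.

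Members, gene lists and tests were chosen with earlier results of these data known. Regions (500 bp on each side) needed at least 5 cytosines of at least 5 calls. Silent genes were under 0.1 RPKM in all 9 columns. Within-library differences of mean methylation were tested by exact two-sided sign-flip permutation over the 6 RRBS libraries. Regional changes were tested with a quasi-binomial model in R 4.3.3 with limma 3.58.1 (adjusted p under 0.05), and with edgeR 4.0.16 and limma on the arcsine square root of the level as alternatives. Both were first tested on simulated data. Other work used Python 3.11.15 with numpy, pandas and scipy. Annotation was GENCODE vM21 and sequence the GRCm38 genome. PBAT and RNA had no test. Some items are not reported here.

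Genes were named by fixed rules: members at 25% or more in both RRBS libraries of a size class (15 highest in full), the 10 highest seen by PBAT alone, the 10 largest gains per contrast and all losses, the 5 with most RNA measured in all 6 RRBS libraries, the extremes of CpG count, up to 6 per gene list, and 3 on each side of the RPKM limit.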

Additional observations from a re-analysis of the deposited data

How the results depend on the processing

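The lower methylation of members than of silent starts kept its direction and its p under every alternative that used all 6 libraries (−0.311 to −0.124 percentage points), and leaving out a library gave −0.278 to −0.220. The nested difference ran from −0.238 to −0.165 in the same way, from −0.363 to −0.146 where its p stayed, and was −0.496 (p = 0.125, exact permutation test) among regions overlapping no other start. The CpG-poor difference ran from 1.25 to 2.09 without a library. It was 0.0728 with at least 10 cytosines per region (4 CpG-poor members), 0.853 at 2 RPKM (22) and 4.17 with a limit of 20 CpGs (4), none past 0.05. The side difference turned to −0.0156 with at least 10 calls and to −0.00115 with pooled calls, and was 0.0290 at 2 RPKM (exact permutation p = 0.03125). The 40-45 µm mean was 0.736% with at least 10 calls, 0.724% with pooled calls, 0.737% with 250 bp and 0.771% with 1000 bp on each side, and 0.764% without overlapping regions. At 2 RPKM, 14 members in place of 23 were at 25% or more.

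Leaving out a library gave 0 to 31 members that gained from 40-45 to 50-55 µm, 1 to 16 from 50-55 to 60-65 µm and 15 to 31 from 40-45 to 60-65 µm, and losses of 0 to 7, 0 to 19 and 0 to 7. In the order 40-45 to 50-55, 50-55 to 60-65 and 40-45 to 60-65 µm, edgeR called 2, 0 and 13 gains with 0 losses each (52, 43 and 46 losses at an unadjusted p under 0.05). Limma called 1, 0 and 27 gains and, between neighbouring classes, 0 losses (92 and 83 unadjusted). From 50-55 to 60-65 µm losses were 0 with at least 10 calls (66 unadjusted). A mean of at least 5% over the same 6 libraries left 34 members, with Mael among them but not Ddost. It gave 0 losses in all 3 contrasts, in the quasi-binomial test and with edgeR (0 unadjusted). Mael was thus no longer called as a loss there, while the setting says nothing of Ddost. With this limit on the mean and in the same order, gains were 15, 24 and 28 in the quasi-binomial test. With edgeR they were 16, 4 and 28 (a run chosen after seeing the data). Of 816 alternative values for 65 calls, 815 kept their sign and 481 their call. Mael alone reversed: from 50-55 to 60-65 µm its change was −23.5 without 50-55 µm replicate A and +0.746 without 50-55 µm replicate B.

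Same-lettered replicates did not deviate together (r = 0.00875, 0.00740 and −0.0610), so the letters were not taken as pairs. In each class, though, replicate B had the higher mean, the lower median and more members at exactly 0 (17.7% to 29.6% against 3.98% to 6.49%). A replicate block gave 38, 23 and 38 gains and 31, 33 and 35 losses, in the order above, so the balance of gains and losses depended on it. The number of cytosines limits CpG-poor starts, most of which RRBS did not measure.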
